A study of Mus musculus with 2 samples.

Results

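The insulin-like growth factor (IGF) system was examined through 10 genes, which were the matrix rows named *Igf1*, *Igf2*, *Igf1r*, *Igf2r* and *Igfbp2* to *Igfbp7* among the 32285 genes of both libraries. Femoral cells of 7-week-old male C57BL/6J mice were compared between an untreated group and a calcitriol-injected group, with 6 mice per group pooled into 1 single-cell library. Calcitriol (1,25-dihydroxyvitamin D3) was injected intravenously at 2.5 μg/kg on each of 3 days, and femurs were collected 24 h after the last dose. The untreated mice were not described as receiving a vehicle. In both groups the epiphyses were removed, the marrow was spun out, the bone was crushed and digested with collagenase and EGTA, and CD45-positive cells were depleted on a magnetic column. With 1 library per group no difference between the groups has a replicate check, so no p-value is given, and each 95% interval covers counting error only.

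IGF1 and IGF2 are secreted growth factors that signal through the receptor tyrosine kinase IGF1R, while IGF2R carries IGF2 to the lysosome and does not signal as a kinase. Most IGF in tissue fluid is held by IGF-binding proteins, which lengthen its life and set how much reaches the receptor, and some of which also act without IGF. In bone, IGFs made by osteoblasts and stored in matrix act on bone growth and remodelling, and *Igfbp7* encodes a secreted protein of vessels and connective tissue that binds IGFs weakly.

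The letters before 3 of the start sites are shown because *Igf1* was lower and *Igf1r* higher in every class in which they were tested, and because *Igfbp7* is the member whose level in osteocytes was in question. Each run holds the 250 bases before a RefSeq start site (build GRCm38.p6), 5′ to 3′ on the strand of the gene. Capitals mark AGGTCA, the consensus hexamer of vitamin D receptor elements, on either strand. They also mark the first variant hexamer searched for, GGTTCA, and the second, which was AGTTCA. The GC box, GGGCGG, to which the factor SP1 binds, is in capitals too.
Igf1, chr10:87860861-87861110, plus strand: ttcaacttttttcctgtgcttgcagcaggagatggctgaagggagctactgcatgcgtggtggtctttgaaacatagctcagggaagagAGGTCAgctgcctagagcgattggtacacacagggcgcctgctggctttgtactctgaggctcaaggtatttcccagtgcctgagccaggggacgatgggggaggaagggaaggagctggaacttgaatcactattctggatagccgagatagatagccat
Igf1r, chr7:67952007-67952256, plus strand: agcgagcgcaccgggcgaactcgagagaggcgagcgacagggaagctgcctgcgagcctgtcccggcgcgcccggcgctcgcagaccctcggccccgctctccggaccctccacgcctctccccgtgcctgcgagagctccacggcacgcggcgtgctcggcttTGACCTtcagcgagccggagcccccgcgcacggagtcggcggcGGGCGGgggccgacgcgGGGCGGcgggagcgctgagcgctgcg
Igfbp7, chr5:77408046-77408295, minus strand: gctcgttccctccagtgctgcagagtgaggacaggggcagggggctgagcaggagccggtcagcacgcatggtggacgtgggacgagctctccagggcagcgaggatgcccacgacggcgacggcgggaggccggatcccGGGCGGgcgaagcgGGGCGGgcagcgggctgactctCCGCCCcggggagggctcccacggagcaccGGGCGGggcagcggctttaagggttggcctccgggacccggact

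The *Igf1* window held 1 hexamer and no GC box, the *Igf1r* window held 1 hexamer (read on the other strand as TGACCT) and 2 GC boxes, and the *Igfbp7* window held 4 GC boxes and no hexamer. The marked letters do not overlap each other. All 10 members matched a RefSeq start, with 14 promoter windows of 300 bases in all (250 before and 50 after the start). A hexamer was in 5 of the 14 windows, against 35.0% of 32851 mouse promoters of that length, and GGGCGG was in 6, against 35.7%. None of the 14 held 2 hexamers in one direction with 3 bases between them, an arrangement present in 8 of the 32851 promoters. Such a match is a description of letters, and these windows are a small part of the regulatory sequence of a gene. In the GRCm38 annotation *Igf1* (ENSMUSG00000020053) lies at chr10:87858265-87937042 on the plus strand, so its window is inside the annotated gene. *Igf1r* lies at chr7:67952827-68233668 on the plus strand and *Igfbp7* at chr5:77349240-77408041 on the minus strand, and both windows lie outside these spans.

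The matrices held 6076 barcodes with 70266983 UMIs (unique molecular identifiers, counted transcript molecules) in the untreated group and 4562 barcodes with 60392557 UMIs in the calcitriol-injected group. After filtering, 4436 and 3693 cells remained, with median depths of 10989.5 and 12258 UMIs. Haemoglobin genes made up 30.6% of the UMIs in the kept untreated cells and 6.10% in the calcitriol cells. The libraries shared 8 barcodes as deposited, 2 of them among the kept cells. The cells formed 24 clusters, of which 1 stayed unnamed (33 and 8 cells, led by *S100a9*), and 9 classes of clusters were large enough in both libraries to compare.

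Numbers of cells are given as untreated and then calcitriol-injected. The bone and cartilage classes were osteocyte-like (96 and 216 cells), osteoblast-like (350 and 332) and chondrocyte-like (445 and 1054) cells. The connective tissue classes were synovial lining-like (25 and 94), fibroblast-like (436 and 664) and tendon-like (376 and 484) cells. The remaining classes were endothelial-like (257 and 305), smooth muscle-like (55 and 81) and erythroid-like (2307 and 434) cells. Median depth was between 6421 and 24293 UMIs per cell in the first 8 classes and was 10427 and 9865 in the erythroid-like class, which is used here as a reference class. The members were not spread evenly over its 6 clusters. *Igf1r*, for one, was at 7.63 CPM (UMIs of the gene per 1000000 UMIs of all genes) over both libraries in the cluster led by the histone gene *Hist1h2ae*, on 77 UMIs, and between 0.288 and 2.84 CPM in the other clusters of the class. How much of these UMIs is free RNA was not tested. The osteocyte-like cluster was named from *Dmp1*, *Mepe*, *Phex* and other osteocyte genes, yet it also carried *Col2a1*, the collagen of cartilage, at 9606 CPM without and 3642 CPM with calcitriol. Of the members, all but *Igf1r* and *Igf2r* were among the variable genes that shaped the clusters, so differences in their levels between clusters are a description.

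The members divided the femoral cell types among them. *Igf1* was made mainly by fibroblast-like and tendon-like cells, *Igfbp6* by fibroblast-like and tendon-like cells, and *Igfbp7* at high levels in every class other than the erythroid-like one. Of the *Igfbp3* UMIs, endothelial-like cells held 57.0% in the untreated group, whereas in the calcitriol group fibroblast-like cells held 49.6% and endothelial-like cells 30.9%. Such shares also depend on cell numbers. Fibroblast-like cells were 9.83% of the untreated and 17.98% of the calcitriol cells, and endothelial-like cells 5.79% and 8.26%. Among the 9 classes compared *Igfbp5* was highest in synovial lining-like cells. Both receptors were spread evenly, with *Igf1r* between 38.3 and 73.9 CPM and *Igf2r* between 52.9 and 104 CPM over the 8 classes of the untreated group. In the erythroid-like class every member was at or below 9.09 CPM without and 10.0 CPM with calcitriol.

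**Figure D1:**
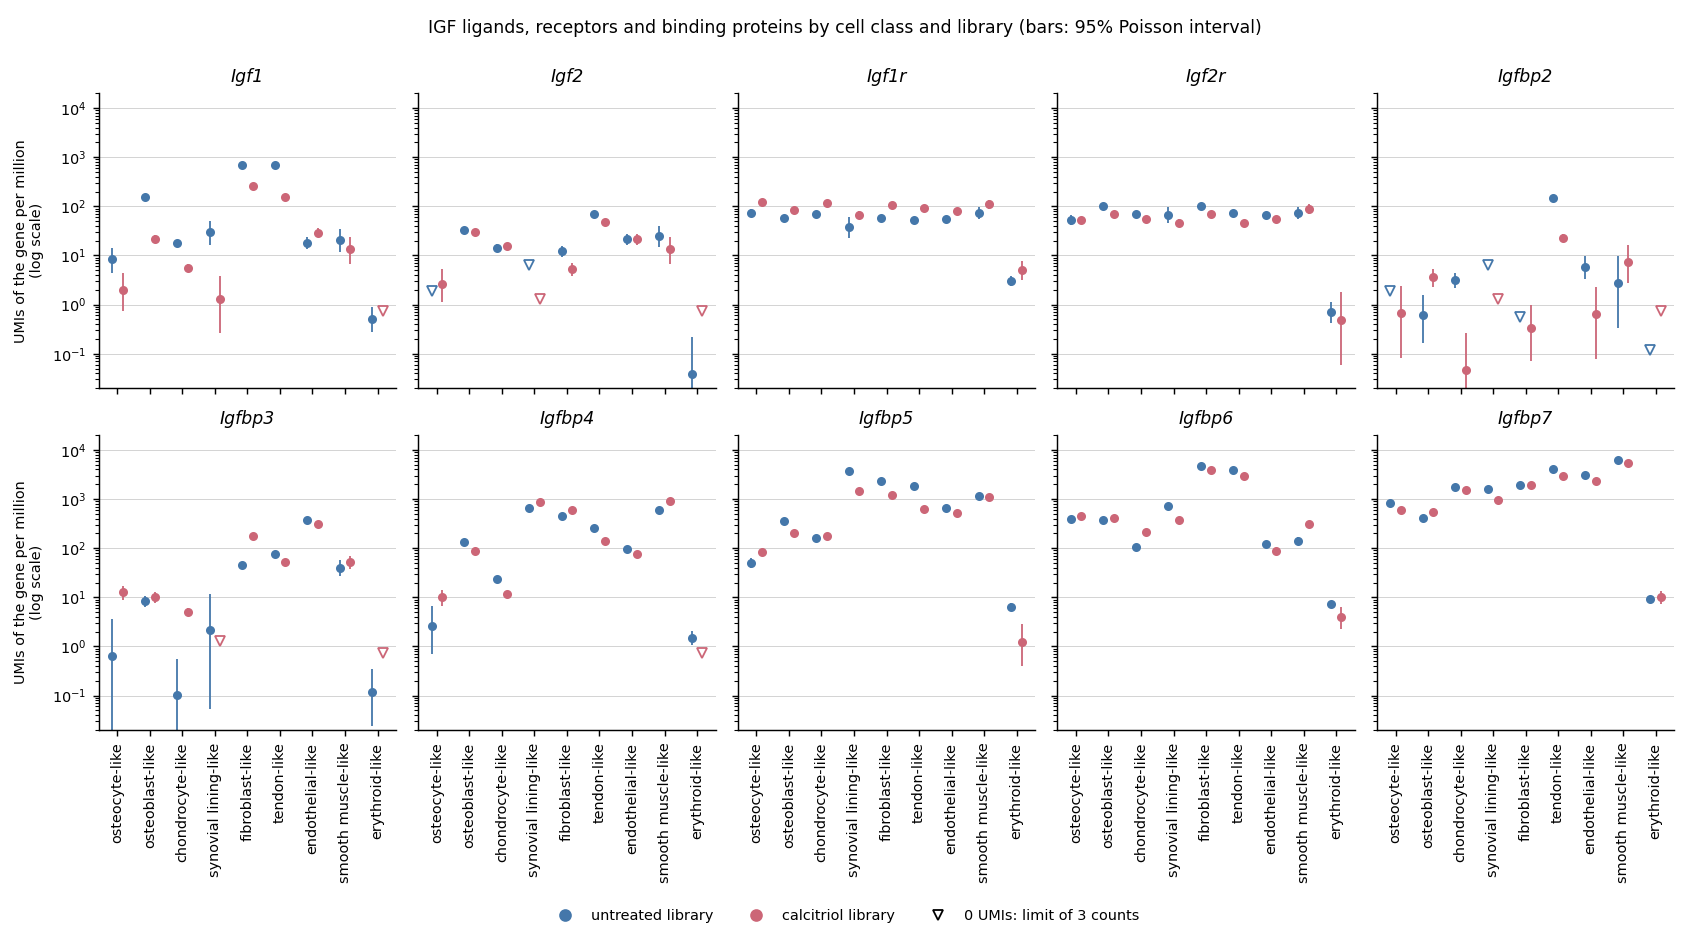
Level of each of the 10 genes in each class, in CPM on a log axis, with blue for the untreated and red for the calcitriol library, bars for 95% Poisson intervals and open triangles for the limit of 3 counts where there was no UMI. *Igf1* was at 706 CPM in fibroblast-like and 690 CPM in tendon-like cells of the untreated library and lower in both after calcitriol, while *Igf1r* was higher after calcitriol in all 8 classes outside the erythroid-like one.

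Calcitriol was set against no treatment in each class, as the log2 ratio of the summed CPM, for genes that had 50 or more UMIs over both libraries and were detected in 10% or more of the cells in either library. The 95% interval of a log2 ratio follows it as a range. Of 90 combinations of member and class 59 passed this filter, none of them in the erythroid-like class. Past a 2-fold ratio were 3 combinations that were higher and 8 that were lower with calcitriol, together 18.6%, while over all 57000 combinations of gene and class that passed, 5.78% were past 2-fold (2.62% higher and 3.17% lower). The lower ones were *Igf1* in 4 classes, *Igfbp5* in 3 and *Igfbp4* in 1, and the higher ones were *Igfbp6* in 2 classes and *Igfbp3* in 1. A member that passed through the group where it is high had to differ, so this share is a description and not a result about the set. The median log2 ratio of the 59 was -0.26, and the median over all genes tested lay between -0.29 and 0.06 in the 8 classes and at -0.79 in the erythroid-like class.

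**Figure D2:**
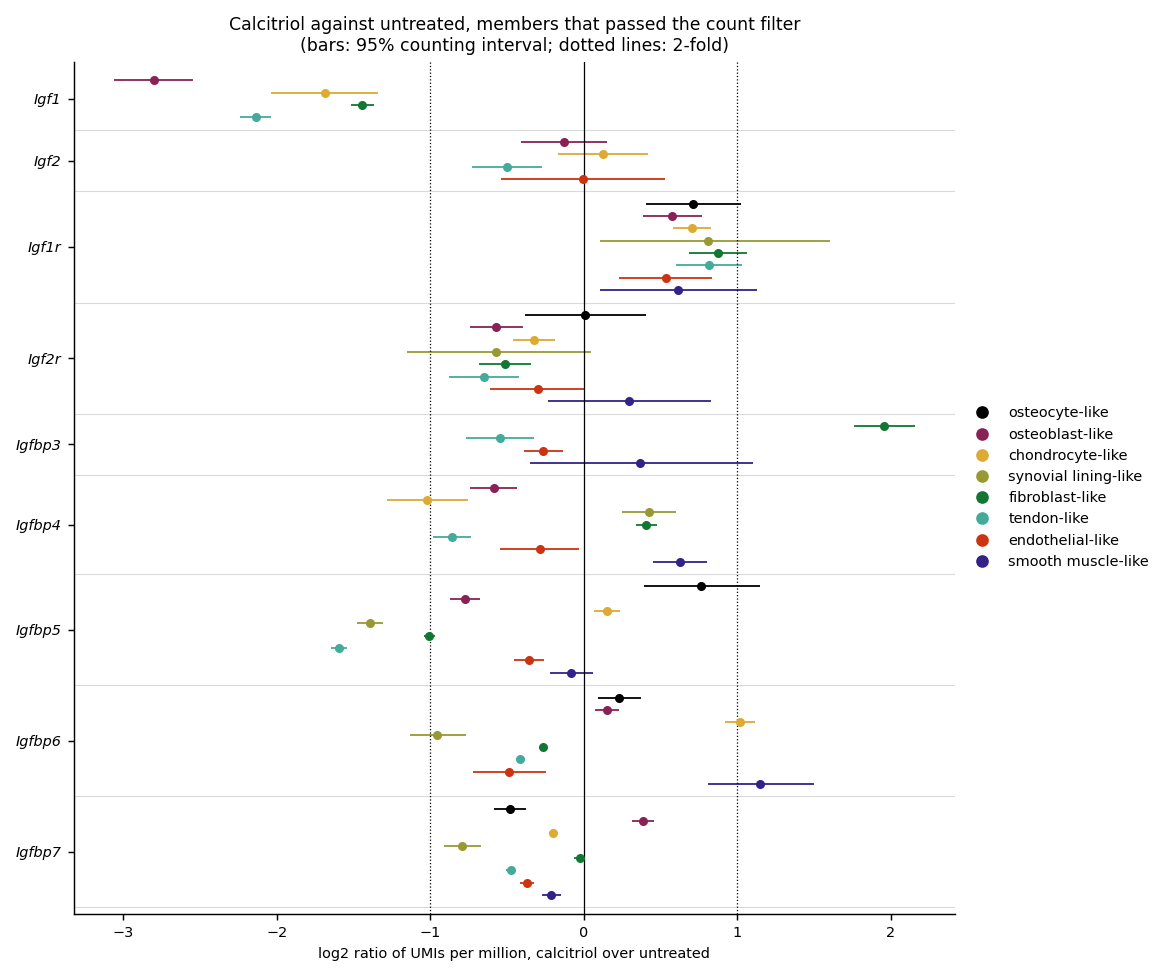
Log2 ratio of CPM, calcitriol over untreated, for the 59 combinations of member and class that passed the count filter, colored by class, with bars for 95% counting intervals and dotted lines at 2-fold. All 4 *Igf1* values lie left of the lower line and all 8 *Igf1r* values lie between 0.53 and 0.87.

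*Igf1* was lower with calcitriol in each of the 4 classes that passed the filter, by between 2.72-fold and 6.97-fold. In fibroblast-like cells it was at 706 CPM without calcitriol (3780 UMIs) and 259 CPM with it (2291 UMIs), a log2 ratio of -1.44 (interval -1.52 to -1.37). In tendon-like cells it was at 690 and 157 CPM (3334 and 989 UMIs), a log2 ratio of -2.14 (-2.24 to -2.04). These classes together held most *Igf1* molecules, with 44.6% and 39.3% of the 8483 untreated UMIs and 62.7% and 27.1% of the 3654 calcitriol UMIs. In the same order they made up 9.83% and 8.48% of the untreated and 17.98% and 13.1% of the calcitriol cells.

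Osteoblast-like cells had the lowest *Igf1* ratio, with 153 and 21.9 CPM (1009 and 146 UMIs), a log2 ratio of -2.80 (-3.06 to -2.55). Only 9 of the 8866 genes tested in that class had a lower ratio. Most of the class's *Igf1* came from the cluster led by *Postn*, a matrix protein of periosteum, where it was at 225 and 33.0 CPM. The cluster led by *Bglap* (osteocalcin, made by mature osteoblasts) held 24 and 3 UMIs. In chondrocyte-like cells *Igf1* was at 17.6 and 5.47 CPM (173 and 115 UMIs), a log2 ratio of -1.69 (-2.04 to -1.34). Of all genes tested, 2.4% were lower by 2-fold or more in osteoblast-like (5.02% in either direction), 3.03% in chondrocyte-like (4.93%), 2.58% in fibroblast-like (4.8%) and 3.94% in tendon-like cells (6.34%).

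Markers of other cell types, summed over each list, also differed between the groups in these 4 classes, and their part in the *Igf1* values was not tested. Erythroid markers were lower with calcitriol in each, at 12069 and 2673 CPM in osteoblast-like, 16974 and 3607 CPM in chondrocyte-like, 27159.6 and 8921.0 CPM in fibroblast-like and 26853 and 7678 CPM in tendon-like cells. Synovial lining markers were higher in each, at 293 and 902 CPM in osteoblast-like and 15914 and 21056 CPM in chondrocyte-like cells. They were at 3466 and 6001 CPM in fibroblast-like and 3036 and 8092 CPM in tendon-like cells. The synovial lining list shares *Prg4* with the chondrocyte list and *Has1* with the fibroblast list. In chondrocyte-like and fibroblast-like cells its sum is therefore not wholly of another cell type. In osteoblast-like cells smooth muscle or pericyte markers were at 820 and 176 CPM, and in tendon-like cells osteoblast markers were at 16391 and 9814 CPM. Without the cells above 5% haemoglobin the *Igf1* log2 ratio in osteoblast-like cells was -2.90.

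The lower *Igf1* level went with a smaller share of cells in which it was detected. A UMI of *Igf1* was in 75.5% of the untreated and 47.9% of the calcitriol fibroblast-like cells, and in 76.3% and 41.1% of the tendon-like cells. With every cell thinned to 2000 UMIs the shares were 50.2% and 22.9% in fibroblast-like and 51.8% and 16.1% in tendon-like cells. Osteoblast-like cells had shares of 35.7% and 13.6%, or 17.8% and 4.27% after thinning. In the erythroid-like class, at median depths of 10427 and 9865 UMIs, 0.520% of the untreated cells had a UMI and no calcitriol cell had one, which allows a share of up to 0.691%.

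**Figure D3:**
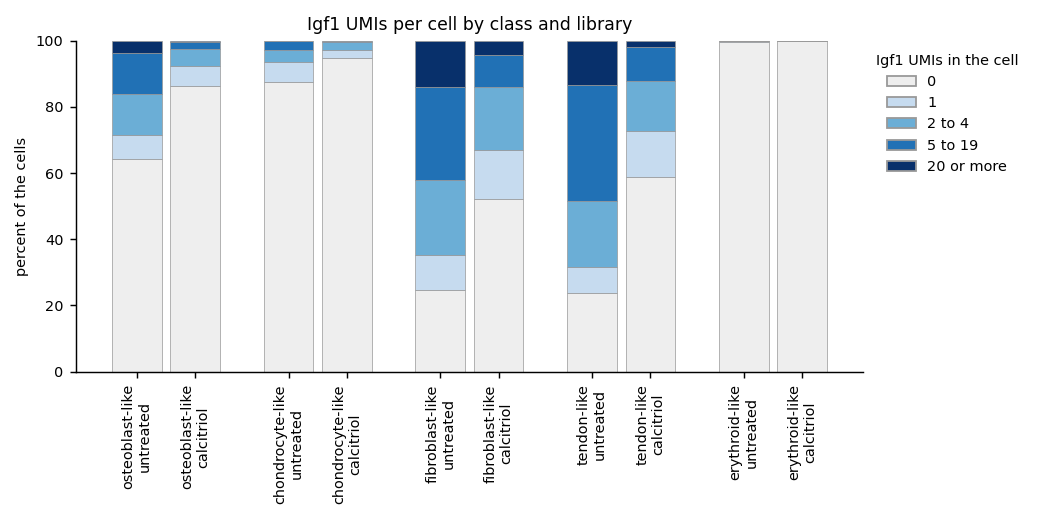
Percent of cells with 0, 1, 2 to 4, 5 to 19 and 20 or more *Igf1* UMIs, as stacked bars for each of 5 classes and both libraries. The part of the bar without *Igf1* is larger in the calcitriol library in each of the 4 classes tested, and the erythroid-like bars are almost wholly at 0.

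Within the classes, the clusters with enough *Igf1* went the same way. Of the tendon-like clusters, that led by *Angptl7* and *Kera* had a log2 ratio of -2.44, that led by *Chodl* and *Mstn* -1.13, and that led by *Igfbp2* and *Sfrp2* -2.37, from 1063 to 205 CPM. Of the chondrocyte-like clusters, that led by *Matn3* and *Epyc* was at -0.98 and that led by *Notum* and *Chil1* at -2.28. In the 4 other classes *Igf1* was too rare to pass: 13 and 6 UMIs in osteocyte-like cells, of which 8 of the 13 were in 1 cell, 14 and 3 in synovial lining-like cells, 15 and 11 in smooth muscle-like cells, and 49 and 90 in endothelial-like cells. In the last of these 43 of the 90 calcitriol UMIs were in 1 cell.

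*Igf2* (ENSMUSG00000048583, chr7:142650766-142666816, minus strand), the fetal IGF that is silenced after birth in most mouse tissues, was low, and none of its 4 values was past 2-fold. Osteoblast-like cells had 33.4 and 30.6 CPM, a log2 ratio of -0.13 (-0.41 to 0.15). Chondrocyte-like cells had 14.2 and 15.4 CPM (0.12, -0.17 to 0.42), and endothelial-like cells 21.4 and 21.3 CPM (-0.01, -0.54 to 0.53). These 3 intervals include 0. In tendon-like cells *Igf2* was at 68.7 and 48.6 CPM, a log2 ratio of -0.50 (-0.73 to -0.27). Nearly all of it was in the cluster led by *Igfbp2* and *Sfrp2*, with 329 of the 332 untreated and 285 of the 307 calcitriol UMIs. The ratio was 2.44 when the libraries were clustered without integration, but the class then held other cells. It had 254 and 328 cells rather than 376 and 484, and no tendon-like cluster was led by *Igfbp2* and *Sfrp2*.

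*Igf1r* (the signalling receptor) was higher with calcitriol in all 8 classes tested, by less than 2-fold and with every interval above 0. Over all 57000 combinations of gene and class that passed, the interval lay above 0 in 16.1% and below 0 in 26.3%. After thinning to 2000 UMIs a cell, the *Igf1r* log2 ratio was 1.55 in synovial lining-like and 1.24 in smooth muscle-like cells. These 2 values rest on few UMIs and have no interval here. Before thinning, synovial lining-like cells had 18 and 157 *Igf1r* UMIs and smooth muscle-like cells 53 and 91, and thinning leaves fewer. Fibroblast-like cells had 58.2 and 107 CPM, the largest log2 ratio at 0.87 (0.69 to 1.06). Chondrocyte-like cells had 70.0 and 114 CPM (0.70, 0.58 to 0.83), on 688 and 2401 UMIs. Osteocyte-like cells had 73.9 and 121 CPM, a log2 ratio of 0.71 (0.40 to 1.02). That cluster was mixed, and its cells were divided by *Dmp1*, *Mepe* and *Phex* after the data had been seen. With UMIs of at least 2 of these genes the ratio was 0.42 (-0.06 to 0.93), an interval that includes 0. With fewer it was 0.89 (0.49 to 1.30). The remaining classes ranged from 0.53 in endothelial-like cells (54.6 and 78.9 CPM) to 0.81 in tendon-like cells (52.6 and 92.4 CPM). The intervals of the 8 classes overlap each other in part, and no difference between classes was tested. A UMI was in 42.2% of the untreated and 59.9% of the calcitriol fibroblast-like cells (11.98% and 17.99% after thinning), against 2.38% and 3.69% of the erythroid-like cells.

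*Igf2r* (chr17:12682406-12769664, minus strand), which clears IGF2, went the other way in 4 classes. It was at 104 and 69.8 CPM in osteoblast-like cells, a log2 ratio of -0.57 (-0.74 to -0.40). Tendon-like cells had 71.6 and 45.6 CPM (-0.65, -0.88 to -0.42), fibroblast-like cells 99.9 and 69.8 CPM (-0.52, -0.69 to -0.35), and chondrocyte-like cells 70.4 and 56.1 CPM (-0.33, -0.46 to -0.19). In the other 4 classes the interval included 0, and osteocyte-like cells had 52.9 and 53.1 CPM, a log2 ratio of 0.01 (-0.39 to 0.41). None of the 8 *Igf2r* values was past 2-fold. Over all genes tested, the interval lay below 0 for 29.4% in osteoblast-like, 30.2% in tendon-like, 32.9% in fibroblast-like and 36.2% in chondrocyte-like cells. In chondrocyte-like cells 28.3% of the genes had a lower ratio than *Igf2r*.

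*Igfbp2* (chr1:72824503-72852474, plus strand), a binding protein of fetal and adipose tissue, passed the filter in no class. It led a tendon-like cluster together with *Sfrp2* and was among the variable genes that shaped the clusters, so its level there is a description. When the IGF genes were left out of the variable genes, 248 of the 254 cells of that cluster still grouped together, with *Igfbp2* at 233 CPM. In tendon-like cells it was at 146 and 22.8 CPM (704 and 144 UMIs), found in 6.91% and 3.72% of the cells. A single cell held 35.9% of the untreated and another 52.8% of the calcitriol UMIs, so these sums rest on few cells.

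*Igfbp3* (chr11:7206086-7213923, minus strand), the main carrier of IGF in blood, was highest among the classes compared in endothelial-like cells, where it was at 375 and 313 CPM, a log2 ratio of -0.26 (-0.39 to -0.13) that was 0.40 as the mean of the cells' own CPM. In fibroblast-like cells it was higher with calcitriol, at 45.4 and 176 CPM (243 and 1555 UMIs), a log2 ratio of 1.96 (1.76 to 2.16). Only 31 of the 8070 genes tested there had a higher ratio, and 2.22% were higher by 2-fold or more. A UMI was in 16.1% of the untreated and 24.4% of the calcitriol fibroblast-like cells, or 5.99% and 15.1% after thinning, and in 0.130% and none of the erythroid-like cells. Tendon-like cells went the opposite way, with 74.9 and 51.3 CPM (-0.55, -0.77 to -0.32). Smooth muscle-like cells had 40.0 and 51.6 CPM, with an interval from -0.35 to 1.10. In chondrocyte-like cells, which did not pass the filter, 69 of 106 calcitriol UMIs were in 1 cell.

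*Igfbp4* (chr11:99041244-99054392, plus strand), a binding protein that holds back IGF until the protease PAPP-A cleaves it, was highest among the 9 classes compared in smooth muscle-like and synovial lining-like cells. The unnamed cluster led by *S100a9* had more, at 1939.7 and 1746 CPM, on 554 UMIs in 33 cells and 165 UMIs in 8 cells. *Cxcl12* and *Hp* were also among its leading genes, and which of its cells held *Igfbp4* was not examined. *Igfbp4* was higher with calcitriol in smooth muscle-like cells, at 587 and 907 CPM (0.63, 0.45 to 0.80). It was also higher in synovial lining-like cells, at 651 and 873 CPM (0.42, 0.25 to 0.60). In fibroblast-like cells it was higher too, at 442 and 586 CPM (0.41, 0.34 to 0.48). It was lower in tendon-like cells, at 260 and 143 CPM (-0.86, -0.98 to -0.73, and past 2-fold in 3 of 12 alternatives), in osteoblast-like cells, at 135 and 89.6 CPM (-0.59, -0.74 to -0.44), and in endothelial-like cells, at 94.4 and 77.3 CPM (-0.29, -0.55 to -0.03). The direction of *Igfbp4* thus differed between classes, a difference that was not tested. Chondrocyte-like cells were just past 2-fold, at 23.4 and 11.6 CPM (-1.02, -1.29 to -0.75), and were past it in 6 of 12 alternative analyses. Their cluster led by *Cytl1* and *Msmp* was at 39.8 and 12.6 CPM (-1.65) and that led by *Notum* and *Chil1* at 43.4 and 15.3 CPM, whereas that led by *Matn3* and *Epyc* was at 0.69 on 25 and 64 UMIs.

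*Igfbp5* (chr1:72857932-72874884, minus strand), the binding protein stored in bone matrix, was lower with calcitriol in the connective tissue classes. In tendon-like cells it was at 1861 and 616 CPM, a log2 ratio of -1.60 (-1.65 to -1.54), and in 58.8% and 33.7% of the cells, against 1.69% and 1.15% of erythroid-like cells. In synovial lining-like cells it was at 3775 and 1436 CPM (-1.39, -1.48 to -1.31), among genes of which 6.8% were lower by 2-fold or more (10.5% in either direction). In fibroblast-like cells it was at 2376 and 1183 CPM (-1.01, -1.04 to -0.97), in 72.0% and 52.7% of the cells, and was past 2-fold in 8 of 12 alternatives. Each tendon-like cluster was lower, and the one led by *Igfbp2* and *Sfrp2* went from 2448 to 329 CPM, a log2 ratio of -2.90.

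In the bone and vessel classes *Igfbp5* was lower in some and not in others, and no difference between classes was tested. Osteoblast-like cells had 352 and 206 CPM (-0.78, -0.87 to -0.68), past 2-fold in 3 of 12 alternatives and lowest at -1.6998 without integration. Without integration the class held other cells. Its cluster led by *Tnn* and *Postn* then had 387 and 364 cells, with *Sfrp2* among the leading genes, against 241 and 221 in the main *Postn* cluster. In the main analysis the *Postn* cluster was at -1.15 and the *Bglap* cluster at 0.11 (-0.07 to 0.29). Chondrocyte-like cells had 160 and 178 CPM (0.15, 0.06 to 0.24), although the ratio ranged from -0.52 by the cells' own CPM to 0.44 without integration. Their cluster led by *Cytl1* and *Msmp* held 4924 *Igfbp5* UMIs over both libraries, against 228 and 164 in the others. It made up 227 of the 445 untreated and 618 of the 1054 calcitriol cells, and the part of this mix in the ratio was not tested. Endothelial-like cells had 672 and 526 CPM (-0.35), and smooth muscle-like cells 1140 and 1078 CPM (-0.08, -0.22 to 0.06). In the endothelial-like class nearly all of it came from the cluster led by *Ccl21a* and *Lyve1*, genes of lymphatic vessels, at 2173 and 1785 CPM. Osteocyte-like cells had 49.7 and 84.3 CPM (0.76, 0.39 to 1.15), but 33 of the 78 untreated UMIs were in 1 cell and the log2 ratio ranged from -0.46 to 2.45 over the alternatives. In those with UMIs of at least 2 of *Dmp1*, *Mepe* and *Phex*, *Igfbp5* was at 13.8 and 38.0 CPM (8 and 43 UMIs). That log2 ratio of 1.47 (0.36 to 2.77) rests on few UMIs, and the division was made after the data had been seen. There 2.37% of the genes tested had a higher ratio.

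*Igfbp6* (chr15:102144362-102149511, plus strand), which binds IGF2 in preference to IGF1, was highest in fibroblast-like cells, at 4774 and 3974 CPM (-0.26, -0.29 to -0.24), and in tendon-like cells, at 3855 and 2894 CPM (-0.41, -0.44 to -0.38). Nearly every cell of these classes held a UMI of it, with 99.1% and 98.5% of the fibroblast-like cells, against 2.34% and 3.23% of the erythroid-like cells. It was higher with calcitriol in chondrocyte-like cells, at 104 and 211 CPM (1.02, 0.92 to 1.12), where 1.9% of all genes were higher by 2-fold or more. There the clusters differed, with 15.8 and 69.9 CPM (2.14, 1.79 to 2.51) in that led by *Matn3* and *Epyc*, 290 and 705 CPM (1.28, 1.13 to 1.44) in that led by *Notum* and *Chil1*, and 148 and 147 CPM (-0.01, -0.16 to 0.13) in that led by *Cytl1* and *Msmp*. The chondrocyte-like value was past 2-fold in 5 of 12 alternatives.

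Smooth muscle-like cells also had more *Igfbp6*, at 139 and 310 CPM (1.15, 0.81 to 1.499), although the shares of cells with a UMI were 23.6% and 16.05% and 91 of the 252 calcitriol UMIs were in 1 cell. The value was past 2-fold in 7 of 12 alternatives, and 3.5% of all genes in the class were higher by 2-fold or more (7.17% in either direction). Synovial lining-like cells had 736 and 380 CPM (-0.95, -1.13 to -0.77), past 2-fold in 3 of 12 alternatives. Osteoblast-like cells had 374 and 415 CPM (0.15, 0.07 to 0.23), with -0.18 without integration, where the class held other cells. Endothelial-like cells had 121 and 86.7 CPM (-0.48), with -1.06 without doublets, and 165 of the 329 untreated UMIs were in 1 cell. In osteocyte-like cells the values were 392 and 460 CPM (0.23), with -1.18 at resolution 1.2 and 1.24 without doublets, and 355 of the 615 untreated UMIs were in 1 cell.

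By its counting interval, *Igfbp7* was lower with calcitriol in 6 of 8 classes and higher in osteoblast-like cells. The interval included 0 in fibroblast-like cells, and *Igfbp7* was past 2-fold in none of the classes. Over all 57000 combinations of gene and class that passed, the interval lay below 0 in 26.3%. That share ran from 12.95% in smooth muscle-like to 36.2% in chondrocyte-like cells, where *Igfbp7* was at -0.11 relative to the class median. The lower level was not limited to osteocyte-like cells. In osteocyte-like cells *Igfbp7* was at 849.9 and 608 CPM (1334 and 1833 UMIs), a log2 ratio of -0.48 (-0.59 to -0.38). Of the 6382 genes tested in that class 732 (11.5%) had a lower ratio, and 6.77% were past 2-fold in either direction. No member was past 2-fold among the 5 that passed in the osteocyte-like class as a whole.

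Outside the osteocyte-like class, synovial lining-like cells had the lowest *Igfbp7* ratio, with 1631 and 943 CPM (-0.79, -0.91 to -0.67). The median over all genes tested in that class was -0.29. Relative to the class median *Igfbp7* was at -0.51 in synovial lining-like and -0.54 in osteocyte-like cells. In the synovial lining-like class the synovial lining markers summed to 103593 and 174768 CPM and the erythroid markers to 993 and 7104 CPM. The chondrocyte markers, which share *Prg4* with the synovial lining list, summed to 94272 and 167903 CPM there. How much of these higher sums was *Prg4* was not examined. The part of these marker differences in the *Igfbp7* value was not tested. Tendon-like cells had 4030 and 2900 CPM (-0.47, -0.50 to -0.45). Endothelial-like cells had 3053 and 2358 CPM (-0.37, -0.42 to -0.33). Smooth muscle-like cells, with the highest level in both groups, had 6333 and 5472 CPM (-0.21, -0.27 to -0.15). Chondrocyte-like cells had 1749 and 1520.2 CPM (-0.20, -0.23 to -0.18), over clusters whose shares of the cells differed between the groups. Fibroblast-like cells had 1950.0 and 1915 CPM (-0.03, -0.06 to 0.01). Osteoblast-like cells, with 416 and 545 CPM, were the class with more *Igfbp7* after calcitriol, at a log2 ratio of 0.39 (0.32 to 0.46). The share of all genes tested whose ratio was lower still than that of *Igfbp7* was 14.2% in synovial lining-like, 19.5% in tendon-like, 18.95% in endothelial-like, 28.9% in smooth muscle-like and 39.0% in chondrocyte-like cells. In osteoblast-like cells 12.5% of the genes had a higher ratio than *Igfbp7*.

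The clusters within a class were not alike in *Igfbp7*. Among chondrocyte-like cells, that led by *Cytl1* and *Msmp* was at 2855 and 2035 CPM (-0.49), that led by *Matn3* and *Epyc* at 814 and 546 CPM (-0.58), and that led by *Notum* and *Chil1* at 2110 and 2178 CPM (0.05, -0.02 to 0.11). In that order they held 227, 140 and 78 untreated and 618, 236 and 200 calcitriol cells. The class value of -0.20 is thus nearer 0 than those of the first 2 clusters, and the part of the changed mix in it was not tested. Among endothelial-like cells, the cluster led by *Flt1* and *Fabp4* was at -0.64 and that led by *Selp* and *Plvap* at -0.17. The lymphatic-type cluster led by *Ccl21a* had little *Igfbp7* and more of it with calcitriol, at 102 and 215 CPM (1.08, 0.69 to 1.47), on 82 and 182 UMIs. The higher level in osteoblast-like cells was in the *Postn* cluster (0.48, 0.40 to 0.56), while the *Bglap* cluster had an interval that included 0 (0.11, -0.05 to 0.26).

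**Figure D4:**
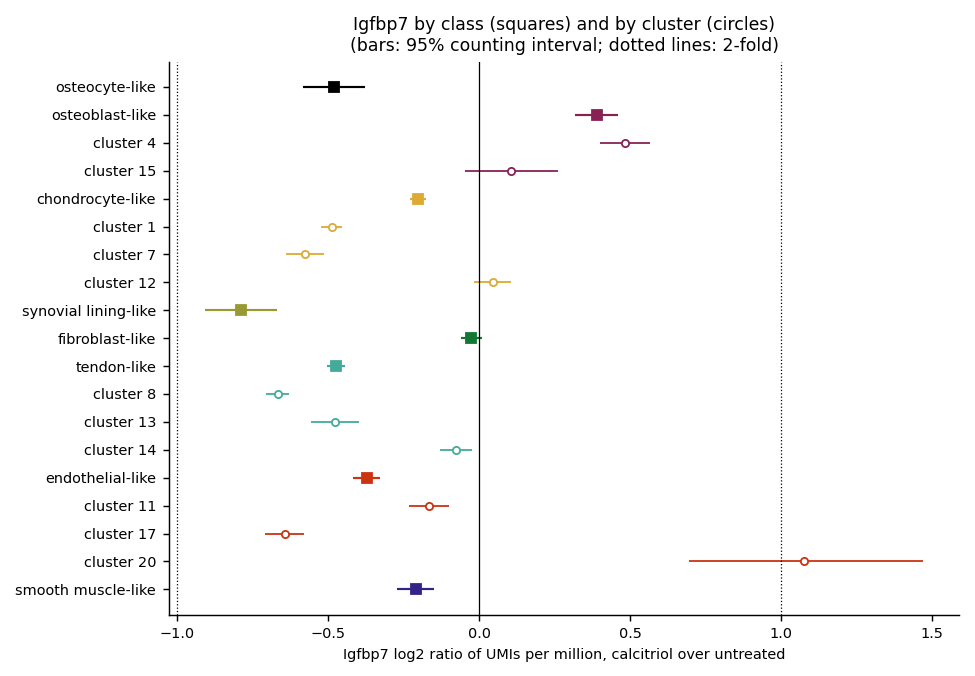
Log2 ratio of *Igfbp7* CPM, calcitriol over untreated, for 8 classes (squares) and the clusters of the classes with several (circles), with bars for 95% counting intervals and dotted lines at 2-fold. The squares run from -0.79 in synovial lining-like to 0.39 in osteoblast-like cells, and cluster 20, the endothelial-like cluster led by *Ccl21a*, stands at 1.08.

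The order of *Igfbp7* levels was the same in both groups, falling from smooth muscle-like through tendon-like, endothelial-like, fibroblast-like, chondrocyte-like, synovial lining-like, osteocyte-like and osteoblast-like to erythroid-like cells (9.09 and 10.0 CPM). In the untreated group the intervals of chondrocyte-like cells (1723 to 1776 CPM) and synovial lining-like cells (1518 to 1751 CPM) overlapped, and in the calcitriol group no neighbors overlapped. Osteocyte-like and osteoblast-like cells were far apart without calcitriol (849.9 and 416 CPM) and close with it, at 608 CPM (581 to 637) and 545 CPM (528 to 563).

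Levels of other cell types' markers differed between the groups along with the lower *Igfbp7* of the osteocyte-like cluster. In the untreated group *Dmp1* was at 1629 CPM, *Mepe* at 333 and *Phex* at 302, and in the calcitriol group they were at 3472, 1534 and 577 CPM. The 12 osteocyte markers, which include these genes, summed to 3935 and 7240 CPM. Without *Dmp1*, *Mepe* and *Phex* the osteocyte sum was nearly the same in both groups. The chondrocyte markers summed to 37374 and 21270 CPM, the osteoblast markers to 42946 and 34159 CPM, and the erythroid markers to 37635 and 7649 CPM. None of the markers of the first 3 lists was at 0 in either group, and 3 of the 12 erythroid markers were at 0 in the calcitriol group. Other lists were higher with calcitriol, with the synovial lining markers at 1024 and 1959 CPM, the fibroblast markers at 3199 and 3974 CPM and the tendon markers at 1874 and 2365 CPM. *Prg4*, the lubricin gene of the joint surface and itself a synovial lining marker, was at 100.02 and 1290.3 CPM. Without *Prg4* the synovial lining sum was lower with calcitriol. The 12 endothelial markers summed to 19.7 and 63.7 CPM, with 4 of them at 0 in the untreated and none in the calcitriol group, and *Pecam1* was at 1.27 and 15.3 CPM. The part of these differences in the *Igfbp7* value was not tested.

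The cells were then divided by the genes that mark osteocytes, a division made after the data had been seen. Osteocyte-like cells with UMIs of at least 2 of *Dmp1*, *Mepe* and *Phex* (34 and 79 cells) had *Igfbp7* at 194 and 151 CPM, a log2 ratio of -0.36 (-0.71 to -0.01). Those with fewer (62 and 137 cells) had it at 1235 and 883 CPM (-0.48, -0.59 to -0.38). Of those with fewer, 29 untreated and 92 calcitriol cells had no UMI of *Dmp1*, *Mepe* or *Phex*. These cells held 731 of the cluster's 1334 untreated and 1285 of its 1833 calcitriol *Igfbp7* UMIs, at 1590 and 1041 CPM. Most of the *Igfbp7* of the cluster was therefore in cells with none of these markers. In the marker-bearing cells, with at least 2 of them, *Igfbp7* was below the osteoblast-like level in both groups. *Col2a1* was at 7799 and 1336 CPM in the marker-bearing cells and at 10669 and 5027 CPM in the cells with fewer markers.

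**Figure D5:**
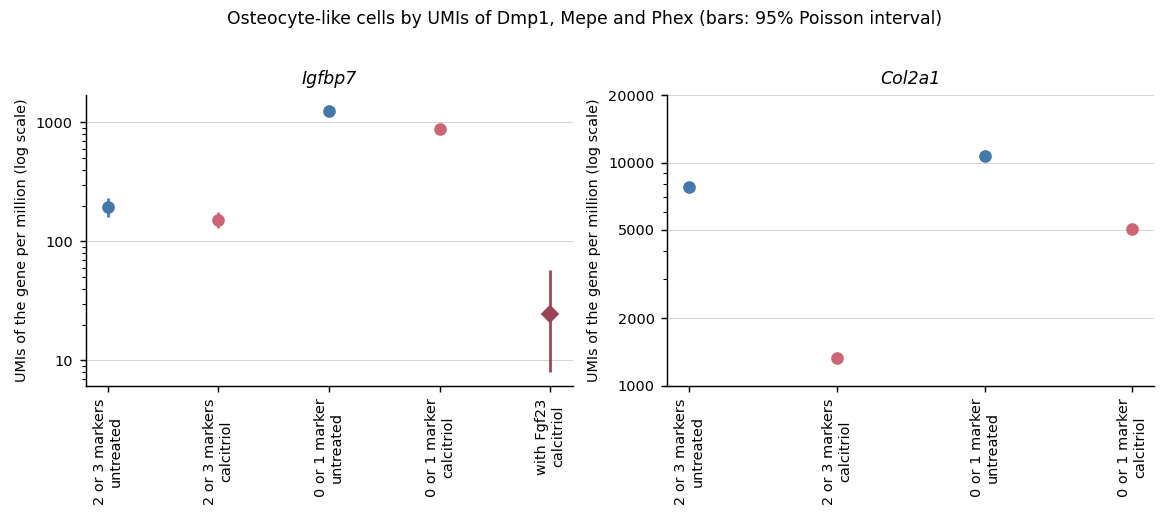
Level of *Igfbp7* and *Col2a1* in CPM on a log axis, in osteocyte-like cells with UMIs of 2 or 3 and of 0 or 1 of *Dmp1*, *Mepe* and *Phex*, blue for untreated and red for calcitriol, with 95% Poisson intervals. *Igfbp7* lies at 194 and 151 CPM in cells with 2 or 3 of the markers and at 1235 and 883 CPM in cells with 0 or 1, and the diamond marks 24.4 CPM in the 8 cells with *Fgf23*.

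Other ways of choosing osteocytes gave other values. At a finer clustering (resolution 1.2) the cluster named osteocyte-like shrank to 24 and 68 cells, with *Igfbp7* at 66.1 and 69.8 CPM, a log2 ratio of 0.08 (-0.75 to 1.00). Most other cells of the class, 176 of them, joined an unnamed cluster of 71 and 151 cells with *Igfbp7* at 1523 and 1060 CPM (-0.52) and *Col2a1* at 16406 and 10492 CPM. Another 44 joined a chondrocyte-like cluster of 73 and 114 cells led by *Col10a1* and *Matn1*. In that cluster *Igfbp7* was at 310 and 333 CPM (0.10, -0.02 to 0.22), an interval that includes 0. Cells of any cluster with at least 2 of the 3 markers (53 and 107 cells) had a ratio of 0.27 (0.07 to 0.46). The lower *Igfbp7* of the whole cluster was therefore not seen in each definition of an osteocyte.

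*Fgf23*, the phosphate-regulating hormone gene of osteocytes, was detected in 8 calcitriol osteocyte-like cells and no untreated one. These 8 cells held between 8 and 158 *Fgf23* UMIs and 204727 UMIs in all, and 7 of them had all 3 osteocyte markers. They held 5 *Igfbp7* UMIs, as 1, 1 and 3 in 3 of the cells, or 24.4 CPM (7.93 to 57.0). Against all untreated osteocyte-like cells the log2 ratio was -5.12 (-6.75 to -3.89), and it stayed between -6.39 and -4.76 when any 1 of the 8 cells was left out.

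Marker-bearing cells without *Fgf23* also had less *Igfbp7* than the class as a whole. Against the 34 untreated osteocyte-like cells with at least 2 of the markers (113 UMIs, 194 CPM) the ratio of the *Fgf23* cells was -2.99 (-4.64 to -1.73). Against the 71 calcitriol cells with at least 2 markers and no *Fgf23* (166 UMIs, 179 CPM) it was -2.88 (-4.52 to -1.62). Against the smaller osteocyte-like cluster at resolution 1.2 it was -1.44, with an interval from -3.25 to 0.10 that includes no difference.

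The other members in the *Fgf23* cells were few in number. *Igfbp6* had 4 UMIs (19.5 CPM), against 83.1 CPM in the 71 calcitriol cells with at least 2 markers and no *Fgf23*, a log2 ratio of -2.09 (-4.001 to -0.67). *Igfbp5* had 1 UMI. *Igf1r* had 9 UMIs (43.96 CPM), against 128 CPM in those 71 cells (-1.55, -2.71 to -0.57). Neither marker level nor depth was matched, with median depths of 15558.5 UMIs in the *Fgf23* cells and 9221 UMIs in the 71 cells. *Igf2r* had 16 UMIs, 12 of them in 1 cell. The 6 *Igf2*, 9 *Igfbp3* and 5 of the 6 *Igfbp4* UMIs were all in the cell with the most *Fgf23*. *Igf1* and *Igfbp2* had 0 UMIs.

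The other genes of the pathway were described through 41 genes in 6 lists. As for the members, a gene that passed through the group where it is high had to differ, so these counts and ratios are a description. Of the 369 combinations of gene and class 209 passed the filter, 12 were higher and 8 were lower with calcitriol by 2-fold or more, and the median log2 ratio was -0.02. Outside the erythroid-like class, 5.78% of all 57000 combinations of gene and class that passed were past 2-fold (2.62% higher and 3.17% lower). By class, 24 passed in osteocyte-like cells (2 higher, 1 lower), 31 in osteoblast-like (2 higher), 32 in chondrocyte-like (1 higher, 2 lower), 20 in synovial lining-like (2 higher, 1 lower), 28 in fibroblast-like (2 higher), 29 in tendon-like (2 higher, 2 lower), 23 in endothelial-like (1 higher), 17 in smooth muscle-like (1 lower) and 5 in erythroid-like cells (1 lower). Of all genes tested, the share higher by 2-fold or more was 4.23% in osteocyte-like, 2.62% in osteoblast-like, 3.67% in synovial lining-like, 2.39% in tendon-like, 1.5% in endothelial-like (3.28% in either direction) and 0.964% in erythroid-like cells (36.2% in either direction). The share lower was 2.54% in osteocyte-like, 1.78% in endothelial-like, 3.67% in smooth muscle-like and 35.3% in erythroid-like cells. It was 6.8% in synovial lining-like and 3.94% in tendon-like cells. In chondrocyte-like cells 1.9% of the genes were higher and 3.03% lower, and in fibroblast-like cells 2.22% were higher.

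Among the 6 proteases and protease inhibitors, *Stc2*, whose protein stanniocalcin-2 inhibits PAPP-A, was higher with calcitriol in all 4 classes that passed. It was at 45.9 and 180 CPM in osteocyte-like cells, a log2 ratio of 1.97 (1.62 to 2.35), and 11.6 and 52.3 CPM in tendon-like cells (2.17). Osteoblast-like cells had 6.20 and 22.4 CPM (1.85) and chondrocyte-like cells 28.0 and 82.5 CPM (1.56). *Pappa*, the gene of PAPP-A itself, was at 4.99 and 14.0 CPM in osteoblast-like cells (1.48) and 9.33 and 21.5 CPM in fibroblast-like cells (1.205), and had a ratio of -0.30 in chondrocyte-like cells. At such low untreated levels a gene may have passed the filter through the calcitriol group alone.

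Among the insulin receptor and its adaptors, *Irs2*, which links IGF and insulin receptors to PI3 kinase, was higher in all 8 classes tested with every interval above 0, against 16.1% of all combinations of gene and class. It was past 2-fold in endothelial-like cells, at 9.95 and 42.9 CPM (2.11), tendon-like cells, at 68.1 and 147 CPM (1.11), and synovial lining-like cells, at 53.2 and 107 CPM (1.01). *Insr*, the insulin receptor, was at 8.40 and 23.7 CPM in fibroblast-like cells (1.49). *Grb14*, an adaptor that holds back insulin signalling, was lower in osteocyte-like cells, at 32.5 and 13.9 CPM (-1.22), and in chondrocyte-like cells, at 40.0 and 16.4 CPM (-1.29).

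Of the 11 kinases and FOXO factors, 2 combinations were past 2-fold, *Foxo1* in synovial lining-like cells, at 268 and 114 CPM (-1.23), and *Pdpk1* in erythroid-like cells, at 29.1 and 12.5 CPM (-1.22). Of the 6 growth hormone genes, *Socs2*, a feedback inhibitor, was lower in smooth muscle-like cells, at 88.4 and 32.0 CPM (-1.47).

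Among the 5 genes of IGF2 imprinting and mRNA binding, *H19*, the noncoding RNA transcribed next to *Igf2*, was lower in chondrocyte-like cells, at 92.2 and 34.3 CPM (-1.43), and in tendon-like cells, at 89.4 and 25.03 CPM (-1.84). *Plagl1*, an imprinted zinc finger gene, was higher in osteocyte-like cells, at 39.5 and 102 CPM (1.37), and in synovial lining-like cells, at 25.5 and 51.3 CPM (1.01). Of the 4 other binding and carrier proteins *Kazald1*, an IGF-binding protein-related gene, passed in 6 classes and was at 83.4 and 38.3 CPM in tendon-like cells (-1.12).

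The genes whose levels over the 24 clusters, as log2(CPM + 10), were most like those of each member are given as a description, since clusters of the same library share depth and free RNA. Among 9782 genes, *Igf1* was most like *Fbln1* (Pearson's r of 0.93), *Abca9* (0.90) and *Angptl1* (0.88). *Igf2* was most like *Nppc* (0.80), *Tpst1* and *Kcnj15*. *Igf1r* was most like *Gnl1* (0.98), *Saraf* and *Sec16a*, and *Igf2r* most like *Rbfox2* (0.98), *Gpat4* and *Prkci*. Among the nearest genes were *Hlf* (0.78), *Epha3* and *Vipr2* for *Igfbp2*, *Acvrl1* (0.87), *Hdac7* and *Adgrl2* for *Igfbp3*, and *Fstl1* (0.91) and *Csf1* (0.90) for *Igfbp4*. There were also *Kank2* (0.91), *Dnajc24* and *Parp3* for *Igfbp5*, *Nbl1* (0.93), *Il11ra1* and *Dcn* for *Igfbp6*, and *Armcx5* (0.95), *Tiparp* and *Arl5b* for *Igfbp7*. Between members the highest values were 0.93 for *Igf1r* with *Igf2r* and 0.91 for *Igf1r* with *Igfbp7*, and *Igf1* with *Igfbp6* had 0.81. The 24 clusters include the erythroid-like ones, in each of which every member was at or below 15.1 CPM. Genes of the other cells can correlate through that split alone, and values without the erythroid-like clusters were not computed.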

How the data were processed

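Single-cell RNA-seq (10x 3′ v3.1) of 1 pooled library per group was used. The authors deposited, for each library, counts of UMIs per gene and barcode as filtered by Cell Ranger 4.0.0 (build mm10), with no normalization, and per the labels analysed them with Seurat 3.2.2. Counts from 3′ ends carry no transcript length.

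Barcodes with under 200 genes were left out. Each library was clustered, and clusters past all 3 limits of the study's methods were left out (medians over 10% mitochondrial UMIs, under 1000 genes and under 2000 UMIs). The rest was integrated by anchors (2000 variable genes, 30 components) and clustered at resolution 0.8 (Seurat 5.3.0 in R 4.3.3). Clusters were named from marker lists with at least 3 markers counted, by a rule whose tie-breaking (markers among the 10 leading genes) was added with the clusters already known. The named genes are the 10 members, the pathway genes past 2-fold in a class, and for each member the 3 genes with the highest correlation of log2(CPM + 10) among genes with at least 500 UMIs. For *Igfbp4* 1 of the 3 is not reported here. The members and lists were chosen with earlier results of these data known.

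CPM is a gene's summed UMIs over all UMIs of the cells. Intervals (95%) were exact: Poisson for levels, conditional binomial for ratios and Clopper-Pearson for shares. A count of 0 allows up to 3 counts. Tools were Python 3.11.15, pandas 2.3.3, scipy 1.17.1, numpy 2.4.6 and, for figures, matplotlib 3.10.9. Doublet scores used 2 simulated doublets for each cell (scikit-learn 1.9.0), and doublets were kept, 216 (4.87%) of the untreated and 135 (3.66%) of the calcitriol cells being marked, shares that the preset rate fixes. The alternatives varied the resolution, components, variable genes, limits, integration, doublets, depth, totals, haemoglobin-rich cells, count minimum and fold. The ratio step was tested on simulated data for the osteocyte-like comparison with known changes in 200 of 6463 genes. The known ratio lay within the interval for 95.8% of genes, and 97.0% of the altered and 0.447% of the other genes were past 2-fold. Both simulated libraries were Poisson counts without variation between cells, mice or libraries, so cover near 95% was built in. The simulation therefore checks the calculation only, and 0.447% is not an error rate for these data. Gene coordinates came from the annotation of GRCm38. Reads were not analysed here.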

Additional observations from a re-analysis of the deposited data

Results flagged for a closer look

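The barcodes left out for having under 200 genes (1443 in the untreated and 642 in the calcitriol library) also held members. For 3 of the members the interval in the calcitriol library lay wholly above the untreated one. *Igfbp7* was at 16.8 CPM there (55 UMIs), against 4.10 CPM in the untreated library. *Igfbp6* was at 14.9 CPM (49 UMIs), against 3.75 CPM, and *Igfbp4* at 5.79 CPM (19 UMIs), against 0.683 CPM. *Igf1* was at 1.83 CPM on 6 UMIs, against 0.683 CPM on 8 UMIs, and *Igfbp5* at 3.05 CPM on 10 UMIs, against 1.79 CPM on 21 UMIs, both with overlapping intervals. *Igf2*, *Igf1r*, *Igf2r* and *Igfbp3* had 1 or 2 UMIs in each library, too few to compare. *Igfbp2* had 2 UMIs in the untreated and 0 in the calcitriol library. These barcodes enter no comparison above.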

How the results depend on the processing

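*Igf1* was past 2-fold and lower in all 12 alternatives in each of its 4 classes, with log2 ratios from -2.90 to -2.16 in osteoblast-like, -2.11 to -1.59 in chondrocyte-like, -1.72 to -1.34 in fibroblast-like and -2.54 to -1.88 in tendon-like cells. *Igf1r* kept its direction in every alternative in all 8 classes. In osteocyte-like cells at resolution 1.2 it was at 0.07, with an interval from -0.57 to 0.76 that includes 0. *Igfbp3* in fibroblast-like cells stayed between 1.85 and 2.06. *Igf2* in tendon-like cells was at 2.44 without integration, where the class held other cells, against -0.50.

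*Igfbp7* in osteocyte-like cells (-0.48) was at 0.078 at resolution 1.2, at 0.27 in cells of any cluster with at least 2 of 3 markers, and at -0.36 in those of the cluster, an alternative chosen after seeing the data. It was at -0.65 with 20 components and without integration, -0.69 without doublets, -0.71 without cells above 5% haemoglobin and -0.30 as the mean of the cells' own CPM. In osteoblast-like cells (0.39) it was at 0.51 past any of the 3 limits and after thinning, 0.23 without integration, 0.28 by own CPM and 0.50 relative to the class median. In chondrocyte-like cells (-0.20) it was at -0.16 at resolution 1.2 and without integration, -0.17 with 20 components, -0.23 without doublets, -0.33 after thinning, -0.35 by own CPM and -0.11 relative to the median. In endothelial-like cells (-0.37) it was at -0.43 at resolution 0.5, at 1.2, with 20 components and without IGF genes among the variable genes, and -0.42 without integration. In smooth muscle-like cells (-0.21) it was at -0.27 with 20 components, -0.32 past any limit, -0.28 without integration and after thinning, and -0.30 without doublets. In synovial lining-like cells (-0.79) it ranged from -0.82 after thinning to -0.51 relative to the median. In tendon-like cells (-0.47) it ranged from -0.67 without integration to -0.40 relative to the median. In fibroblast-like cells (-0.03) it was at -0.12 by own CPM and 0.079 relative to the median, so that its sign depends on the scale.

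In osteocyte-like cells the count of members past 2-fold (0) was 1 at resolution 1.2, past any limit and without doublets, and 2 at a 1.5-fold limit. Over all classes the count (11) was 25 at 1.5-fold and between 9 and 13 otherwise. *Igfbp6* in osteocyte-like cells was at 0.23, at 1.24 without doublets, 1.09 past any limit and -1.18 at resolution 1.2. The pathway count (20) was 4 after thinning, where 80 combinations passed. *Igfbp7* in *Fgf23* cells against untreated osteocyte-like cells (-5.12) was at -1.44 at resolution 1.2 and between -5.81 and -5.12 in the other alternatives run, which did not include thinning, own CPM or the class median. Some settings use fewer cells or UMIs by construction, and others, such as no integration, change which cells a class holds. Beyond that, the cause of these differences was not tested. No paired analysis was possible because each group is 1 library. Members without a ratio had under 50 UMIs, as *Igf1* in osteocyte-like, synovial lining-like and smooth muscle-like cells, or a UMI in under 10% of the cells, as *Igf1* in endothelial-like and *Igfbp2* in tendon-like cells.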
